A study of Homo sapiens with 9 samples.

Results

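Cytochrome P450 enzymes of families 1 to 4 are haem proteins of the endoplasmic reticulum that oxidise drugs, pollutants, steroids, retinoids, vitamin D and fatty acids. Their genes were taken from the deposited gene table by symbol: CYP, a family number from 1 to 4, a subfamily letter and a member number. This gave 35 of the 20379 genes listed, of which 3 belong to CYP1, 16 to CYP2, 4 to CYP3 and 12 to CYP4. Genes such as CYP24A1 and CYP51A1 fall outside the rule. The RNA came from HCCLM3, an established human liver cancer cell line, which had been transfected with siRNA against UXS1, with siRNA against MRPL42 or, in parallel, with the non-targeting siRNA-NC as control. UXS1 makes UDP-xylose, the sugar donor that starts glycosaminoglycan linkers, and the MRPL42 protein sits in mitochondrial ribosomes. Polyadenylated RNA was sequenced as 3 libraries per group, called a, b and c here, for 3 groups, and the number of siRNA sequences, their dose and the time to harvest were not given in the sources used here. All cells belong to a single cell line, and separate cultures behind the libraries are not stated, so every p-value measures library-to-library spread that could be technical only.

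A P450 enzyme takes electrons from cytochrome P450 reductase, or from cytochrome b5, and uses them to split molecular oxygen on its haem iron. In the liver the CYP1, CYP2 and CYP3 enzymes carry out most phase I drug metabolism, and their genes answer to ligand sensors: the aryl hydrocarbon receptor AHR for CYP1, the receptors PXR and CAR for CYP2B, CYP2C and CYP3A. CYP4 enzymes mostly hydroxylate fatty acids and eicosanoids at their far end, and part of that family responds to the fatty acid receptor PPAR alpha.

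All 35 genes encode the haem-binding stretch near the end of the protein, whose cysteine holds the haem iron. The coding sequence of this stretch is shown for CYP1, CYP3A and CYP4F genes that are expressed and for near copies of them with few counts, because their similarity bears on how reads can be told apart. The sequences are from the GENCODE 29 transcripts of GRCh38, 5′ to 3′, with the cysteine codon in capitals.
CYP1A1: tttggcatgggcaagcggaagTGTatcggt
CYP1A2: tttggcatgggcaagcgccggTGTatcggg
CYP1B1: ttttcagtgggcaaaaggcggTGCattggc
CYP3A5: tttggaactggacccagaaacTGCattggc
CYP3A4: tttggaagtggacccagaaacTGCattggc
CYP3A7: tttggaagtggacccagaaacTGCattggc
CYP4F11: ttctcggcagggcccagaaacTGCatcggg
CYP4F3: ttctcagcagggcccaggaacTGCatcggg
CYP4F12: ttctccgcagggcccaggaacTGCatcggg
CYP4F2: ttctcggcagggcccaggaacTGCatcggg
Over these 30 bases CYP1A1 differed from CYP1A2 at 4 bases and from CYP1B1 at 11, CYP3A5 differed from CYP3A4 at 1 base, and CYP4F3 differed from CYP4F2 at 1 base. Over the whole coding sequence CYP3A5 and CYP3A4 were 89.4% identical, and CYP4F3 and CYP4F2 were 91.3% identical. Windows of 75 bases that also occur in a transcript of another gene made up 2.31% of the CYP3A5 transcript, 3.66% of that of CYP3A4, 4.28% of that of CYP4F3 and none of that of CYP4F11.

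The libraries held between 15265959 and 22400560 estimated counts. Control library c stood apart: across genes, which are not independent replicates, its log2 CPM (counts divided by library size, scaled by TMM) correlated with the other libraries at Pearson's r between 0.961 and 0.972, against 0.987 or more among the other 8 libraries. The comparisons with control siRNA were therefore fitted with and without it. UXS1 measured 141 CPM ± 3.43 (SD, n = 3) with UXS1 siRNA and 158 ± 18.8 with control siRNA, and MRPL42 measured 93.1 ± 11.3 with MRPL42 siRNA and 122 ± 23.4 with control siRNA. Neither target passed the threshold (edgeR, Benjamini-Hochberg adjusted p of 0.348 and 0.185), so the knockdowns were not measurable beyond the spread at the RNA level. Without control library c the log2 fold change of UXS1 with its siRNA went from -0.17 to -0.078 and that of MRPL42 with its siRNA from -0.39 to -0.24 (edgeR adjusted p of 0.519 and 0.252). TPM, a level per transcript length scaled to the same total in each library, was computed from the counts. Of 21 hepatocyte markers 13 had a mean of at least 1 TPM, with APOH at 91.6 TPM, FGA at 46.0 TPM and ALB at 12.3 TPM. APOA1, APOA2, APOC3, TTR, HP, G6PC1 and CPS1 were under 1 TPM, and PCK1 had no count. The labelled liver origin is thus met by part of the hepatocyte markers only. Of 12 cholangiocyte and intestinal markers 10 had a mean of at least 1 TPM. Their summed level was 2504 TPM in control library c and 1977 to 2278 TPM elsewhere. That of the hepatocyte markers was 170 TPM in c and 232 to 294 TPM elsewhere. In TPM, control library c was lower than every other library in 10 of the 21 hepatocyte markers, tested or not. In CPM it was lower than every other library in 31.8% of all genes tested. FGG, a fibrinogen chain, was listed at 0 TPM in library c against at least 15.9 TPM elsewhere.

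With a mean of at least 1 TPM over the 9 libraries taken as expressed, 12 of the 35 P450 genes were expressed, against 58.9% of all genes with a length. They were CYP1A1 and CYP1B1, then CYP2B6, CYP2C18, CYP2R1, CYP2S1 and CYP2U1, then CYP3A5 alone of its family, and CYP4F3, CYP4F11, CYP4F12 and CYP4V2. The same number, 12, was at or above 1 TPM in every single library and also above a mean of 2 TPM. The lowest gene inside the limit was CYP2U1 at 2.94 TPM and the highest outside was CYP3A4 at 0.634 TPM. These 12 genes carried 99.0% to 99.5% of the summed TPM of all 35 in each library. CYP1B1, CYP3A5, CYP4F11 and CYP2S1 alone carried 69.1% to 74.8%. The order among the 12 depends on the transcript length used. With all annotated exons of a gene merged in place of 1 transcript, a setting chosen after seeing the data, the mean of CYP3A5 went from 60.01 to 24.1 TPM and that of CYP4V2 from 19.8 to 6.53 TPM, and CYP4F12 went from 11.2 to 6.80 TPM. CYP2S1 went from 45.4 to 69.6 TPM and CYP2C18 from 4.81 to 7.61 TPM. The same 12 genes stayed at or above 1 TPM, CYP1B1 stayed the highest, and comparisons between libraries of a gene do not rest on its length. In bulk RNA fewer cells with a transcript and less transcript per cell cannot be told apart.

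**Figure D1:**
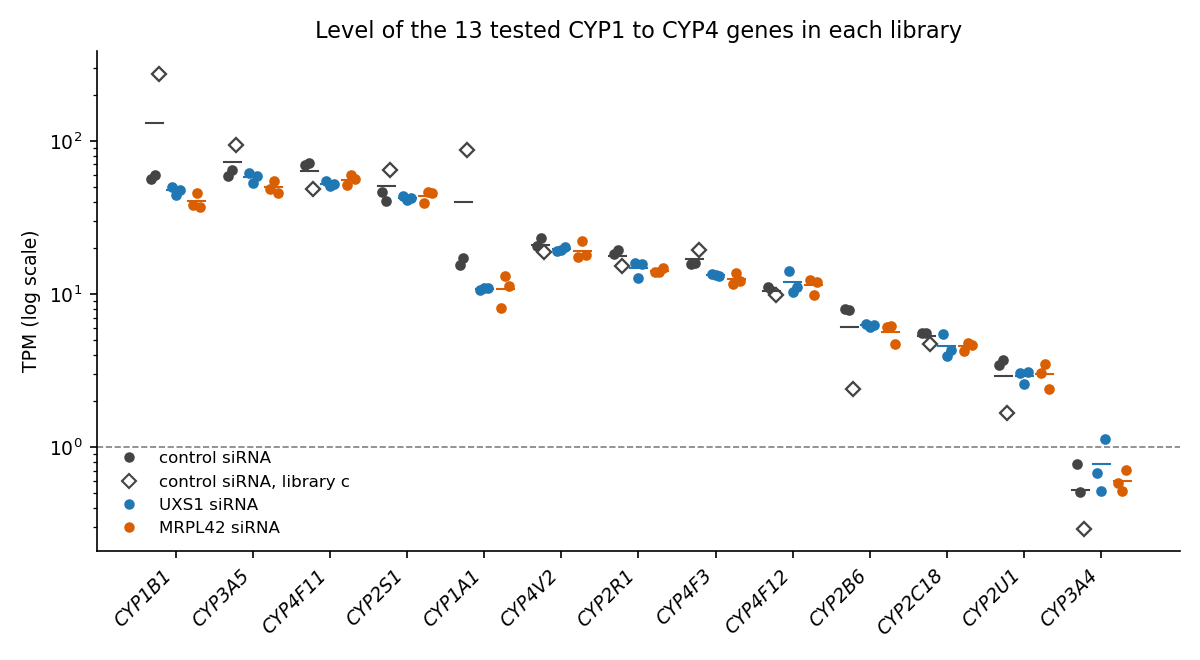
TPM on a log axis for the 13 P450 genes that passed the filter on low counts, ordered by their mean, with a dot for each library, a short line for each group mean and an open diamond for control library c. The dashed line marks 1 TPM; 12 genes lie above it in all libraries, CYP3A4 lies below it in all but 1, and the diamond of CYP1B1, at 275 TPM, is far above the 8 dots at 36.8 to 59.8 TPM.

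Family 1 was represented by 2 of its 3 genes. CYP1B1 (chr2:38066973-38109902, minus strand), which oxidises oestrogens and polycyclic hydrocarbons mostly outside the liver, measured 56.4, 59.8 and 275 TPM in control libraries a, b and c. It measured 50.1, 44.4 and 47.7 TPM with UXS1 siRNA and 38.0, 45.8 and 36.8 TPM with MRPL42 siRNA. Every control library was above every library with a targeting siRNA, and library c was far above the rest. CYP1A1 (chr15:74719542-74725610, minus strand), which oxidises aromatic hydrocarbons and is the classic AHR target, measured 15.3, 17.2 and 87.4 TPM in the controls. It measured 10.6, 10.9 and 10.96 TPM with UXS1 siRNA and 8.03, 13.01 and 11.2 TPM with MRPL42 siRNA. Again every control library was above every library with a targeting siRNA, with library c far above the rest. In CPM all UXS1 libraries lay below all controls for 10.9% of all genes tested, and all MRPL42 libraries for 10.5%. The share of genes with both was not counted. CYP1A2, the caffeine-oxidising enzyme of liver, had 3 counts in all 9 libraries together.

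The most abundant CYP2 gene was CYP2S1, an extrahepatic enzyme that accepts retinoids and fatty acid hydroperoxides. It measured 46.2, 40.6 and 64.3 TPM in the controls, 43.3, 41.3 and 42.0 TPM with UXS1 siRNA and 39.5, 46.0 and 45.7 TPM with MRPL42 siRNA, and the groups overlapped. CYP2R1, the main 25-hydroxylase of vitamin D, lay between 12.7 and 19.3 TPM in the 9 libraries. CYP2B6, which clears drugs such as bupropion and efavirenz, measured 7.98 and 7.88 TPM in control libraries a and b but 2.40 TPM in c. In the 6 libraries with a targeting siRNA CYP2B6 measured 4.70 to 6.36 TPM. CYP2C18, the least studied of the human CYP2C enzymes, lay between 3.95 and 5.59 TPM. CYP2U1, which hydroxylates long-chain fatty acids, lay between 2.40 and 3.68 TPM in 8 libraries and at 1.66 TPM in control library c.

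CYP3A5 carried nearly all CYP3 transcript. This close relative of the main drug-metabolising enzyme CYP3A4 measured 59.0, 64.0 and 93.5 TPM in the controls, 61.8, 53.2 and 59.1 TPM with UXS1 siRNA and 48.7, 55.0 and 45.8 TPM with MRPL42 siRNA. The MRPL42 libraries overlapped with the UXS1 libraries in TPM and lay below all controls. In CPM 10.5% of all genes tested had all MRPL42 libraries below all controls. CYP3A4 itself lay between 0.293 and 1.13 TPM, on 5 to 16 counts per library. CYP3A7, the fetal form, had at most 6 counts in a library, and CYP3A43 had 2 counts in all.

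Within CYP4, 3 genes of the CYP4F subfamily and CYP4V2 were expressed. CYP4F11, which hydroxylates long-chain 3-hydroxy fatty acids and vitamin K, measured 70.0 and 71.8 TPM in control libraries a and b and 48.5 TPM in c. It measured 54.6, 50.6 and 52.3 TPM with UXS1 siRNA and 51.2, 59.6 and 56.2 TPM with MRPL42 siRNA. Control library c was the lowest of all 9 libraries here, while a and b were the highest. CYP4F3, a leukotriene B4 hydroxylase, measured 15.8, 15.8 and 19.2 TPM in the controls, 13.5, 13.3 and 13.1 TPM with UXS1 siRNA and 11.6, 13.6 and 12.2 TPM with MRPL42 siRNA. All controls were above all libraries with a targeting siRNA. The pairwise shares over all genes tested were 10.9% for UXS1 siRNA and 10.5% for MRPL42 siRNA in CPM, and the joint share was not counted. CYP4F12 lay between 9.85 and 14.2 TPM, and CYP4V2, a fatty acid hydroxylase whose loss causes Bietti crystalline dystrophy of the retina, between 17.4 and 23.0 TPM.

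Of the 23 genes under 1 TPM, 15 had a count in some library and 8 had none. The 8 without any count were CYP2A13 and the CYP4 genes CYP4A11, CYP4A22, CYP4B1, CYP4F8, CYP4F22, CYP4X1 and CYP4Z1. Over the 161923432 counts of all libraries a count of 0 allows up to 3 counts, or 0.0185 CPM, which covers counting error only, since reads amplified by PCR and lacking molecular identifiers can repeat a molecule. Across all genes listed 19.0% had no count. Several of the main drug-metabolising enzymes of liver were among the genes with few counts: CYP2A6 had 65 counts in all, CYP2D6 had 42, CYP2E1 had 16 and CYP2C8 had 13. CYP2C19, CYP2J2, CYP2W1, CYP4F2, CYP2F1 and CYP2A7 had between 2 and 35.2 counts in all.

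Expressed and silent genes lay side by side in most gene clusters. Of the 35 genes, 27 lie in 6 clusters with gaps under 500 kb in the GENCODE 29 annotation, and 8 of those 27 were expressed, against 4 of the 8 lone genes. The 5 genes of the CYP4A, CYP4B, CYP4X and CYP4Z cluster (chr1:46757838-47149741) were all without a count. In the CYP3A cluster (chr7:99648194-99866102) CYP3A5 was the only expressed gene of 4. The CYP4F cluster (chr19:15508493-15934867) had 3 expressed genes of 6, with CYP4F2 at 2 counts in all between CYP4F12 at 11.2 TPM and CYP4F11 at 57.2 TPM. The CYP2A, CYP2B, CYP2F and CYP2S cluster (chr19:40843538-41207539) had CYP2B6 and CYP2S1 expressed among 6 genes. CYP1A1 and CYP1A2 (chr15:74719542-74756202) point away from each other 23.2 kb apart, and their transcripts stood at 20.5 and 0.0157 TPM.

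**Figure D2:**
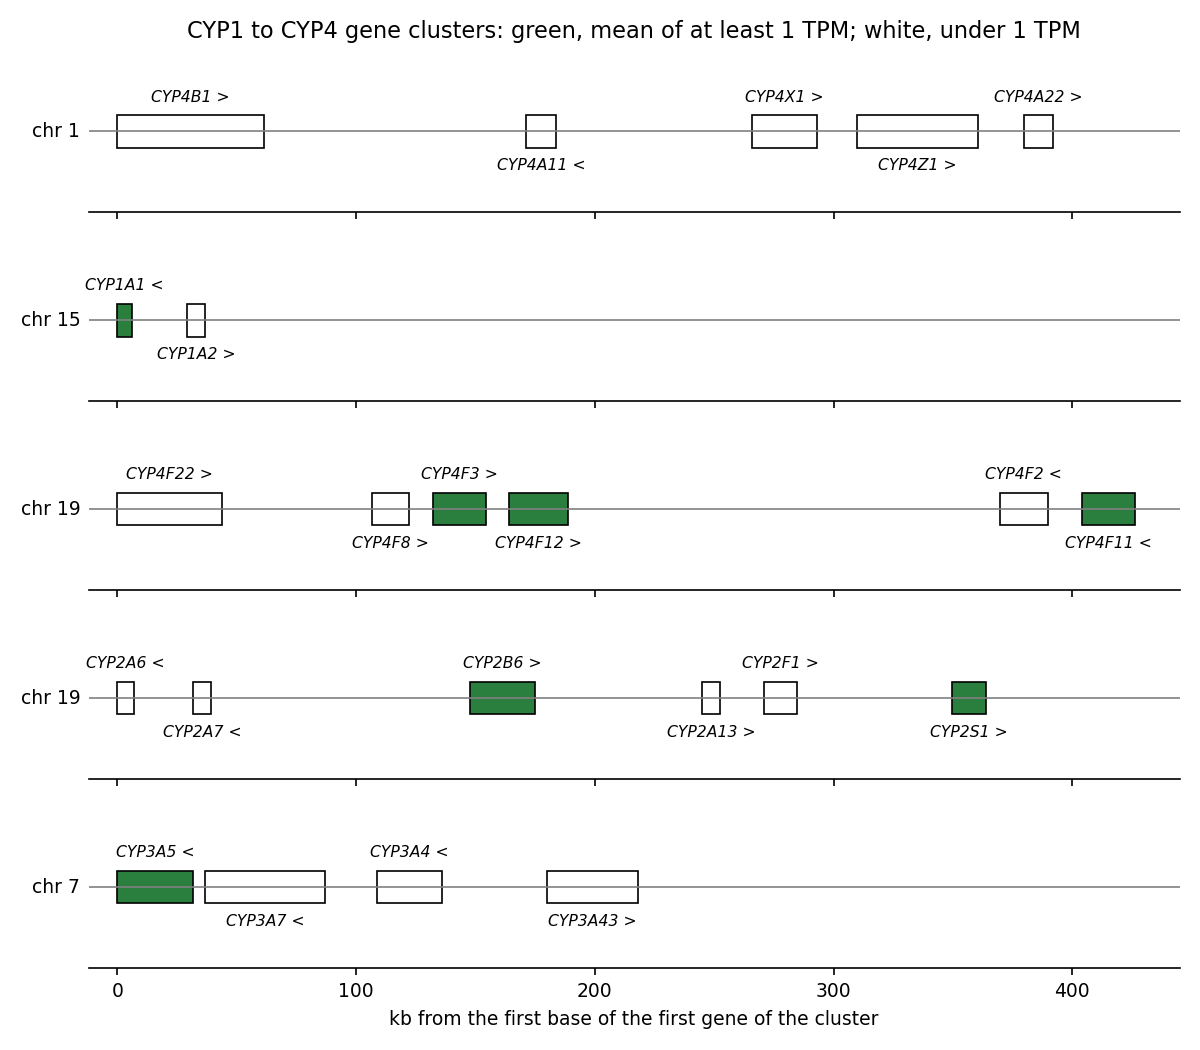
The clusters on chromosomes 1, 7, 15 and 19 drawn to a common scale as distance in kb from the first base of the first gene, with strand given by > and <. Green boxes are genes with a mean of at least 1 TPM and white boxes genes under it; the chromosome 1 cluster holds white boxes only, and each of the others drawn mixes both kinds.

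CYP1A1 and CYP1B1 differed most between control library c and the other libraries. Relative to the mean of control libraries a and b in TMM-scaled CPM, it was 5.65-fold higher for CYP1A1 and 4.98-fold higher for CYP1B1. Both were over 4-fold above each of the other control libraries, which held for 0.332% of the 12657 genes tested, and among those genes their rises ranked 23 and 31. CYP3A5 was 1.60-fold and CYP2S1 1.56-fold higher in c. In the opposite direction CYP2B6 was at 0.32 and CYP2U1 at 0.49 of the mean of a and b, and CYP4F11 at 0.72. Library c was above all 8 other libraries for 5 of the 13 tested P450 genes and below all of them for 5, where the shares over all genes tested were 31.6% and 31.8%. CYP4V2 is among the latter, at 16.2 CPM against 16.5 to 18.8 CPM. CYP1 transcripts made up 56.3% of the summed P450 TPM in c and 17.9% to 22.5% in the other 8 libraries.

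**Figure D3:**
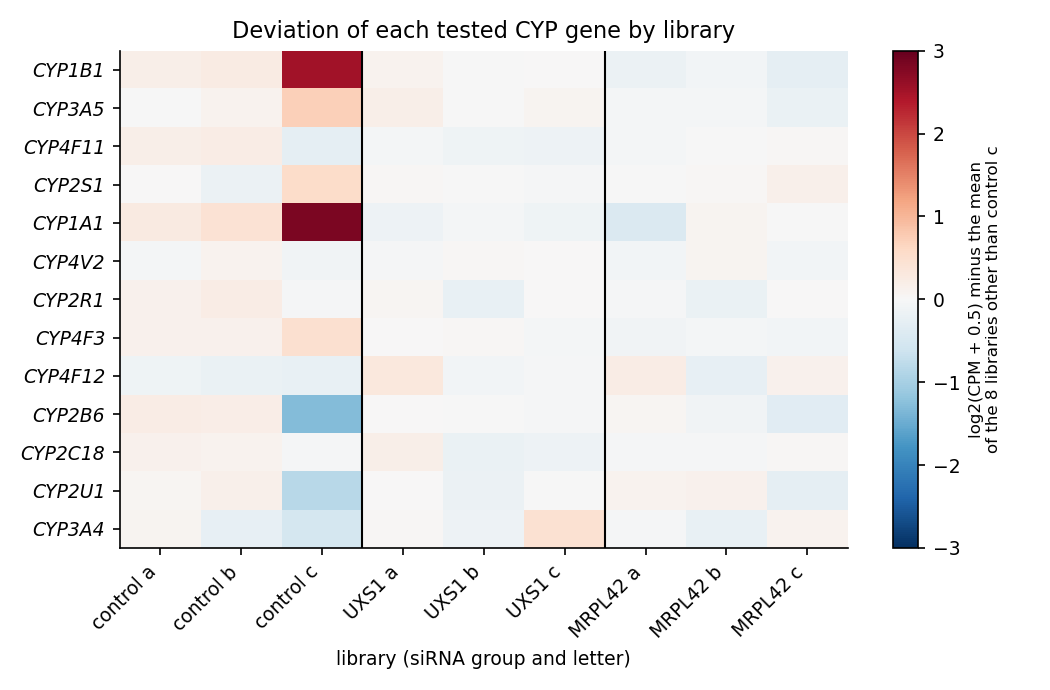
Each tile is a gene's log2(CPM + 0.5) in a library minus its mean over the 8 libraries other than control c, with genes in order of mean TPM and black lines between the groups. The column of control c holds the strongest colours, from 2.81 for CYP1A1 and 2.53 for CYP1B1 down to the blue tile of CYP2B6, while most other tiles are pale.

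CYP1A1 and CYP1B1 share a known regulator, AHR, which binds with ARNT at sites with the core GCGTG. A list of 13 genes of this pathway was set beside them, of which TIPARP and AHRR are named after their values were seen. TIPARP, an AHR-induced feedback enzyme, measured 73.6, 74.7 and 194 CPM in control libraries a, b and c. In the 6 libraries with a targeting siRNA TIPARP measured 62.3 to 76.4 CPM. AHRR, the AHR repressor, measured 1.86, 1.74 and 8.43 CPM in the controls and 1.62 to 3.96 CPM with the targeting siRNAs. Both thus stood highest in control library c, and whether AHR activity took part in the CYP1 levels was not tested. In TPM, library c was above every other library for 6 of the 13 genes and below for 1. In CPM library c was above for 31.6% and below for 31.8% of all genes tested. The median of the list in c relative to a and b was 0.17 on the log2 scale. ALDH3A1, an aldehyde dehydrogenase, measured 1520, 1418 and 2055 CPM in the controls and 1176 to 1286 CPM with the targeting siRNAs. AHR itself lay between 43.0 and 61.9 TPM. Among markers of other cell types, LUM, a fibroblast proteoglycan, measured 218 TPM in c against at most 33.8 TPM elsewhere, while COL1A1 reached at most 0.206 TPM and CDH5 had no count. The summed level of the 16 fibroblast, endothelial and leukocyte markers was 401 TPM in c, of which LUM made up 218 TPM, against 159 to 201 TPM elsewhere. Library c was above all others for 9 and below all for 4, beside the shares of 31.6% and 31.8% over all genes tested. Of these 16 markers 11 were under 1 TPM. For the 6 tested ones the median difference between c and the mean of a and b was -0.10 on the log2 scale of CPM. The summed level of the 21 hepatocyte markers was 170 TPM against 232 to 294 TPM, and the median difference of the 13 tested ones was -0.99. Of the 9 nuclear-retained and histone RNAs with a TPM, which mark RNA quality, library c was above all others for 5 and below all for 2. The same shares over all genes tested stand beside these counts. Their summed level was 452 TPM in c against 423 to 517 TPM. The median difference of the tested genes of this list between c and the mean of a and b was 1.20 on the log2 scale of CPM. The part of these markers in the CYP1 levels was not tested.

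**Figure D4:**
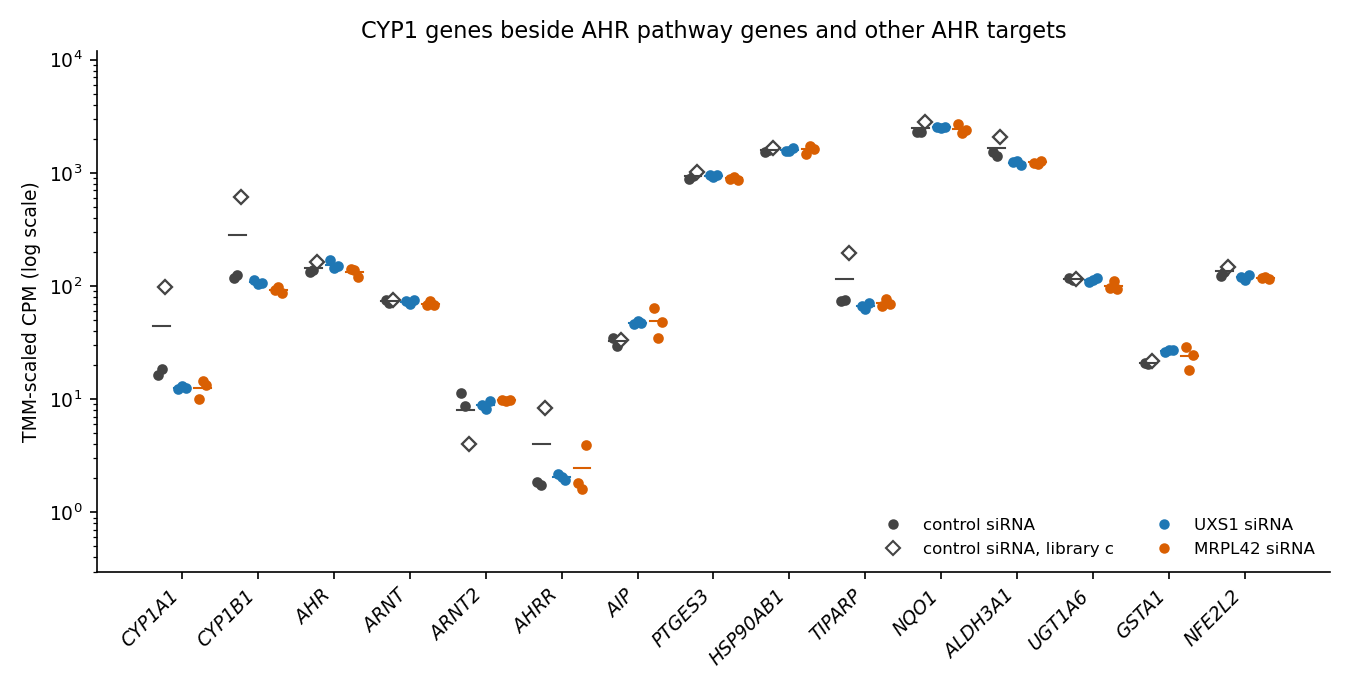
TMM-scaled CPM on a log axis for CYP1A1, CYP1B1 and the 13 genes of the AHR list, with a dot for each library, a short line for each group mean and an open diamond for control library c. The diamonds of CYP1A1, CYP1B1, AHRR and TIPARP are well above all dots of their gene, that of ARNT2 is below, and those of ARNT and UGT1A6 lie among their dots.

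The promoter of CYP1A1 is shown because CYP1A1 had the largest ratio of control library c to a and b among the 13 tested genes, as RefSeq gives it for GRCh38.p14 (chr15:74725529-74725778, minus strand, the 250 bases up to the start site). Capitals mark the AHR core GCGTG and the TATA box TATAAA.
CYP1A1: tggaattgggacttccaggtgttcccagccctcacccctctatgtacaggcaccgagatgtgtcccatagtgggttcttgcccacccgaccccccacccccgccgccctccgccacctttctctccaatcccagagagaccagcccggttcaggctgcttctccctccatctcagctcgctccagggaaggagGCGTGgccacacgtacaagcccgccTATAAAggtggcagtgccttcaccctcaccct
GCGTG begins 57 bases and TATAAA 32 bases before the start. Both motifs were searched on both strands in windows of 300 bases around the start site, and GCGTG and TATAAA share no overlap. GCGTG was found in 36.5% of 35116 RefSeq promoters and in those of 8 of the 27 P450 genes with an entry, among them CYP1A1, CYP2U1 and CYP4V2 of the 9 expressed genes with an entry. TATAAA was found in 11.5% of all promoters and in those of 13 of the 27 P450 genes, of which CYP1A1 and CYP2B6 were expressed. CYP1B1 had no promoter entry, so its promoter was not searched for either motif. A match describes the letters in the window and not binding.

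With UXS1 siRNA and all 9 libraries no P450 gene passed the threshold. The log2 fold change was negative for 8 of the 13, as for 51% of all genes tested, and CYP1A1, CYP1B1 and CYP4F3 had the most negative values. CYP1A1 measured 12.6 CPM ± 0.384 (SD, n = 3) against 44.6 ± 46.9 with control siRNA, a log2 fold change of -1.82 (SE 0.61) with an edgeR Benjamini-Hochberg adjusted p of 0.204. CYP1B1 measured 108 CPM ± 5.26 against 284 ± 281, a log2 fold change of -1.39 (SE 0.54, edgeR adjusted p of 0.236). CYP4F3 measured 29.2 CPM ± 0.893 against 34.9 ± 5.17 with control siRNA, a log2 fold change of -0.26 (SE 0.10, edgeR adjusted p of 0.233). The control SDs of both CYP1 genes include library c, at 98.8 CPM for CYP1A1 and 608 CPM for CYP1B1. By edgeR's quasi-likelihood test 0 of 13 P450 genes passed an adjusted p of 0.05, where 0.0158% of all genes did, and 3 of 13 had an unadjusted p below 0.05, where 17.8% did. DESeq2 called 0, where 3.63% of all genes passed, and limma-voom with library weights called 1, CYP4F11, where 10.4% passed. The limma-voom fit gave control library c a weight of 0.102, against 0.512 to 2.55 for the other libraries, so it leaned little on c. All UXS1 libraries lay outside the range of all controls for 4 of the 13, against 26.2% of all genes: lower for the 3 genes above, as for 10.9% of all genes, and higher for CYP4F12 at 9.39 to 12.5 CPM against 8.49 to 9.03 CPM. The median log2 fold change of the 13 was -0.15, and that of all genes tested was -0.0047.

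Without control library c CYP4F11 was lower with UXS1 siRNA. It measured 74.7, 71.2 and 70.2 CPM with UXS1 siRNA and 88.5 and 90.7 CPM in control libraries a and b, and fell by 0.33 on the log2 scale (SE 0.06, edgeR adjusted p of 0.0160). It was the only P450 gene of 13 that passed, where 1.58% of all genes did, and 4 of 13 had an unadjusted p below 0.05, where 19.2% did. CYP1A1 kept a lower value, with a log2 fold change of -0.48 (SE 0.13, edgeR adjusted p of 0.104), and CYP1B1 one of -0.19 (SE 0.07, adjusted p of 0.184). All UXS1 libraries were below control libraries a and b for both genes. CYP4F3 went from -0.26 to -0.14 (SE 0.07, edgeR adjusted p of 0.276), with an unadjusted p of 0.0567. CYP3A5 turned from -0.23 to 0.02, CYP2S1 from -0.17 to 0.06, CYP2B6 from 0.14 to -0.24, CYP2U1 from 0.09 to -0.19 and CYP4V2 from 0.01 to -0.05, none of them past the threshold in either fit. The median of the 13 was -0.19 without library c, and that of all genes tested was -0.0072.

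With MRPL42 siRNA the log2 fold change was negative for 9 of the 13, as for 52.1% of all genes tested, and no P450 gene passed the threshold. The most negative values were those of CYP1A1, CYP1B1, CYP3A5 and CYP4F3. CYP1A1 measured 12.6 CPM ± 2.29 (SD, n = 3), a log2 fold change of -1.82 (SE 0.61, edgeR adjusted p of 0.166), and CYP1B1 measured 92.7 CPM ± 6.06, one of -1.62 (SE 0.55, edgeR adjusted p of 0.167). CYP3A5 measured 37.7 CPM ± 2.05 against 50.8 ± 14.7, a log2 fold change of -0.43 (SE 0.17, edgeR adjusted p of 0.211). CYP4F3 measured 27.6 CPM ± 0.505, a log2 fold change of -0.34 (SE 0.10, edgeR adjusted p of 0.141). These 4 were also the P450 genes whose MRPL42 libraries all lay below all controls, which 10.5% of all genes did, and none lay above, where 21.6% of all genes lay on either side. By edgeR 0 of 13 passed the adjusted threshold, where 0% of all genes did, and 4 of 13 had an unadjusted p below 0.05, where 20.2% did. DESeq2 called 0, where 5.35% of all genes passed, and limma-voom with library weights called 1, CYP4F3, where 15% passed. The median log2 fold change of the 13 was -0.09, and that of all genes tested was -0.01.

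Without control library c, CYP1B1 was the P450 gene that passed in the MRPL42 comparison. It measured 92.6, 98.8 and 86.7 CPM with MRPL42 siRNA and 118 and 126 CPM in control libraries a and b, and fell by 0.40 on the log2 scale (SE 0.07, edgeR adjusted p of 0.0239). It was 1 of 13, where 1.33% of all genes passed, and 6 of 13 had an unadjusted p below 0.05, where 19.6% did. CYP1A1 stood at -0.47 (SE 0.13, adjusted p of 0.103), CYP4F11 at -0.22 (SE 0.06, adjusted p of 0.0855), CYP4F3 at -0.22 (SE 0.07, adjusted p of 0.122), CYP2B6 at -0.37 (SE 0.12, adjusted p of 0.141) and CYP3A5 at -0.17 (SE 0.08, adjusted p of 0.260), all by edgeR. Leaving out library c turned CYP2B6 from 0.018 to that value, CYP2U1 from 0.15 to -0.13 and CYP2S1 from -0.10 to 0.14. The median of the 13 went from -0.09 to -0.17, while that of all genes tested stayed at -0.01. All MRPL42 libraries lay below both controls for 8 of the 13, where 17.5% of all genes did so in this direction and 33.8% in either. For UXS1 siRNA 7 of 13 lay below, where 18.5% of all genes did, and 8 lay outside in either direction, where 40.6% did. Both comparisons share the control libraries, so their values are not independent.

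**Figure D5:**
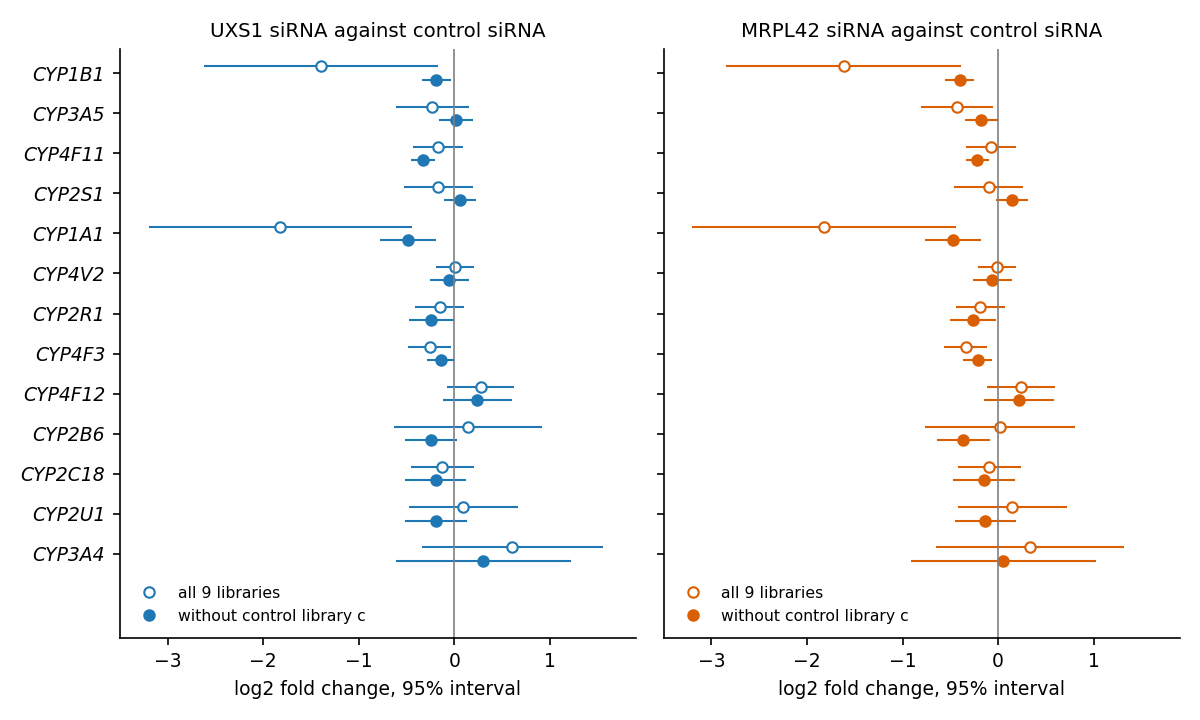
Log2 fold changes of the 13 tested P450 genes with 95% intervals derived from edgeR's F statistic. UXS1 siRNA is at left and MRPL42 siRNA at right, each against control siRNA. Open circles are from all 9 libraries and filled circles from the fit without control library c; the intervals of CYP1A1 and CYP1B1 are the widest among the open circles, and CYP3A4 has the widest among the filled ones.

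Between the targeting siRNAs no P450 gene passed the threshold. With all 9 libraries the log2 fold changes of UXS1 siRNA against MRPL42 siRNA lay between -0.10 for CYP4F11 and 0.28 for CYP3A4. By edgeR 0 of 13 had an adjusted p below 0.05, where 0% of all genes did, and 0 had an unadjusted p below 0.05, where 1.72% did. DESeq2 and limma-voom also called 0. CYP1B1 at 104 to 114 CPM and CYP3A5 at 40.7 to 46.0 CPM were higher in every UXS1 library than in every MRPL42 library, and CYP4F11 at 70.2 to 74.7 CPM was lower. Those 3 of 13 compare with 10.1% of all genes. For CYP1A1 the log2 fold change was -0.0030, with a 95% interval from -1.41 to 1.41 in the fit of all libraries, and leaving out control library c it was -0.0095, with an interval from -0.28 to 0.26. Such an interval does not show that the siRNAs acted alike on CYP1A1. Without library c, CYP1B1 stood at 0.21 (SE 0.06) and CYP3A5 at 0.19 (SE 0.07), both with an edgeR adjusted p of 0.868 and an unadjusted p below 0.05, as 5.35% of all genes had.

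All genes on the list of P450 electron donors and haem partners were expressed. The list also holds ferredoxin genes such as FDX2, which are outside the donors named above for families 1 to 4. POR, the reductase, named for its role outside the rule on smallest p, lay between 243 and 315 TPM. Of the 11 genes on this list 10 had a positive log2 fold change with UXS1 siRNA and 9 with MRPL42 siRNA. Of all genes tested 49% and 47.9% had one. The list medians of 0.21 and 0.18 became 0.15 and 0.08 without library c, and none of the 11 passed by edgeR in either fit. In TPM library c was below all other libraries for 7 of the 11 and above all for 2. In CPM it was below for 31.8% and above for 31.6% of all genes tested. With all 9 libraries DESeq2 called 2 of the 11 higher with UXS1 siRNA, CYB5B and the ferredoxin FDX2. With MRPL42 siRNA it called 1 of 10 tested, FDX2, also higher. In either direction it called 3.63% and 5.35% of all 12657 genes, counting also those to which it gave no adjusted p. Limma-voom with library weights called 3 of 11 higher in each comparison, where 10.4% and 15% of all genes passed in either direction. The smallest p with UXS1 siRNA belonged to CYB5B, an outer mitochondrial membrane cytochrome b5, at 0.24 (edgeR adjusted p of 0.174). All 12 genes of haem synthesis and breakdown were expressed, with medians of 0.19 and 0.12 that became 0.093 and 0.090 without library c. In TPM library c was below all other libraries for 6 of the 12 and above all for 2. ALAD, a haem synthesis enzyme, stood at 0.30 with UXS1 siRNA (edgeR adjusted p of 0.185) and at 0.19 without library c (edgeR adjusted p of 0.203). Of the 26 nuclear receptors and liver factors 20 were expressed, with medians of -0.04 and -0.03 that became -0.08 and -0.07 without library c. NR1I2, which encodes PXR, and NR1I3, which encodes CAR, also named for their role, stood at 3.71 and 0.0838 TPM on average, with NR1I2 at 9.88 TPM in control library c against at most 3.48 TPM elsewhere. The medians of the AHR list were -0.0068 and -0.08, and 0.0089 and -0.02 without library c. ALDH3A1 of that list was called lower in both comparisons by DESeq2 and by limma-voom, and not by edgeR.

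None of the genes on these lists, or on the lists of PXR and CAR targets, PPAR alpha targets, other CYP families, other phase I enzymes, eicosanoid partners, cell type markers and RNA quality, passed in any comparison with all 9 libraries by edgeR. Of the genes on all lists DESeq2 called 5 of 140 tested with UXS1 siRNA and 8 of 134 with MRPL42 siRNA. Of all 12657 genes, counting also those to which it gave no adjusted p, it called 3.63% and 5.35%. Limma-voom with library weights, in which control library c had a weight of 0.102, called 22 and 31 of 155, where 10.4% and 15% of all genes passed. Neither tool called any between the targeting siRNAs. Without control library c edgeR called 5 and 7 of 156, where 1.58% and 1.33% of all genes passed. CYP24A1, the vitamin D 24-hydroxylase, rose by 0.50 with UXS1 siRNA (adjusted p of 0.00965) and by 0.46 with MRPL42 siRNA (adjusted p of 0.0205), 1 of 10 tested genes of other CYP families. FADS2, a fatty acid desaturase, rose by 0.39 in both comparisons, 1 of 9 tested eicosanoid partners. Among 21 tested phase I enzymes MAOA fell by 0.32 with UXS1 siRNA and by 0.40 with MRPL42 siRNA, and FMO5 fell by 0.43 with MRPL42 siRNA. Among cell type markers KRT7 and CD68 rose in both comparisons and KRT19 with MRPL42 siRNA, and no hepatocyte marker passed. The tested genes among the PXR and CAR targets (8), PPAR alpha targets (13) and RNA quality genes (8) had no call in that fit either. Median log2 fold changes of these 3 lists with UXS1 siRNA were -0.06, -0.04 and -0.05 with all libraries, and -0.07, -0.06 and 0.28 without library c.

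Some P450 transcripts share sequence with other genes. Whether the reads keep the strand was not given in the sources used here. Of the CYP2C18 transcript 36.6% of the 75-base windows also occur in AL583836.1, which overlaps it on the same strand, and CYP2C18 is 1 of 3 P450 genes with decimal counts. Of the CYP1B1 transcript 8.83% lies opposite CYP1B1-AS1, of CYP4V2 6.50% is shared with KLKB1, and of CYP2B6 2.25% with the pseudogene CYP2B7P. CYP1A1, CYP2R1, CYP2S1 and CYP4F11 shared none. The windows were searched for the 13 tested genes only. Among the others, CYP2C19 overlaps AL583836.1 and CYP3A7 overlaps CYP3A7-CYP3A51P on the same strand, and both have decimal counts.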

How the data were processed

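The submitters' processing notes name fastp, Bowtie2, HISAT2 and edgeR, and hg38 as the build. Versions, annotation and counting method were not given in the sources used here. For each gene and library, the authors deposited an estimated count, not divided by depth or length, and 83.6% to 84.9% of the values above 0 per library were whole. The analysis had been designed for counts and was run on the estimated counts rounded to whole numbers. The 9 deposited TPM columns were not used, and 1 column, that of the estimated counts, was kept per library. The levels given here therefore need not equal the deposited TPM. TPM was computed from the estimated counts with 1 GENCODE 29 transcript length per gene, the longest principal transcript or, without one, the longest, for 20104 genes, and 275 genes without a length have no TPM. TPM serves for levels between genes and TMM-scaled CPM for levels between libraries.

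The edgeR (4.0.16) quasi-likelihood test, two-sided, was fitted in R 4.3.3 over all 9 libraries with 1 mean per group after filterByExpr and TMM. Benjamini-Hochberg adjustment ran over all 12657 genes tested, with a threshold of 0.05, and 13 of the 35 P450 genes passed the filter. The others could not be tested. Totals of 15265959 to 22400560 estimated counts set the precision. Every pair of libraries of the same group differed by more than counting noise, with a chi-square of at least 3.34 per gene. Alternatives were DESeq2 1.42.0, upper-quartile scaling, no filter, only the 6 libraries compared, limma-voom (limma 3.58.1) with library weights, other expression limits, merged exons as the length behind TPM (added after seeing the data) and leaving out each library. Named are all P450 genes, those under the filter by ranges, and from 13 lists with 212 entries, 208 of them in the table, up to 4 genes past the threshold or the 2 with the smallest p, with exceptions stated in the text and a few genes that are not reported here. The members and lists were chosen with earlier results of these data known. Gene positions and sequences come from GENCODE 29 (GRCh38) and promoters from RefSeq (GRCh38.p14) and coding identity was computed with edlib alignment.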

Additional observations from a re-analysis of the deposited data

How the results depend on the processing

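No paired analysis was possible because the columns carry letters that no label ties to the repeat numbers. Of 404 values of P450 genes under the alternatives 28 changed sign, 4 newly passed and 372 kept sign and side of the threshold. Of 782 values of named list genes and of the siRNA targets 15 changed sign, 55 newly passed and 712 kept both. The number of expressed P450 genes was 12 under each limit tried but 1, a mean of at least 0.5 TPM, which gave 14, and with all exons of a gene merged it was 12. With UXS1 siRNA limma-voom with library weights called 1 P450 gene, CYP4F11, and 1315 genes in all, DESeq2 460 and the fit of only the 6 libraries 253. Under limma-voom the values of CYP3A5 (0.031), CYP2U1 (-0.13), CYP2S1 (0.082), CYP2B6 (-0.17), CYP4V2 (-0.057), LUM (0.11), H2BC21 (0.024) and H2AC6 (0.24) changed sign, and CYP4V2 stood at -0.0021 with DESeq2 and at -0.0054 in the 6 libraries. With MRPL42 siRNA limma-voom called 1 P450 gene, CYP4F3, and 1897 genes in all, DESeq2 677, and under limma-voom CYP2U1 (-0.23), CYP2S1 (0.18), CYP2B6 (-0.40), H2BC21 (0.019) and H2AC6 (0.12) changed sign.

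Leaving out 1 library at a time gave 0 to 1 called P450 genes in both comparisons, the 1 without control library c each time. All genes called ranged from 0 to 355 with UXS1 siRNA and from 0 to 810 with MRPL42 siRNA, both highest without MRPL42 library b, which left 0 P450 genes called. With UXS1 siRNA the ranges were -0.37 to 0.019 for CYP3A5, -0.051 to 0.072 for CYP4V2, -0.19 to 0.28 for CYP2U1, -0.31 to 0.063 for CYP2S1, -0.24 to 0.38 for CYP2B6, -1.94 to 0.16 for LUM, -0.0035 to 0.39 for PECAM1, -1.06 to 0.0047 for H2BC21, -0.53 to 0.22 for H2AC6 and -0.092 to 0.17 for MRPL42. With MRPL42 siRNA they were -0.066 to 0.058 for CYP4V2, -0.13 to 0.34 for CYP2U1, -0.24 to 0.14 for CYP2S1, -0.22 to 0.016 for CYP4F11, -0.37 to 0.26 for CYP2B6, -0.035 to 0.65 for ALB, -2.07 to 0.037 for LUM, -1.04 to 0.032 for H2BC21 and -0.69 to 0.063 for H2AC6. The cause was not tested. Depth limits the 22 P450 genes under the filter on low counts, which could not be tested.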
